A study of Mus musculus with 12 samples.

Results

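Enpp1, Mgat5, Dera, Pde2a and Hddc3 are 5 genes for metabolic enzymes, described here in newborn mouse epidermis with conditional knockout (cKO) of the polarity genes Llgl1 and Llgl2. The 5 genes were taken by symbol from a table of 46078 genes, and all 5 were among the 14582 genes with enough reads to test. They were chosen by their measured counts, as higher in Llgl-deficient libraries, so their levels in comparisons of Llgl genotypes are given as a description. Calls of the fit over all genes are stated for them as counts beside the background, and nothing is read from these calls. Each of them was higher in every Llgl-deficient library than in every other library, an order that their choice favours. The same order was present in 1.29% of all genes tested.

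The 12 RNA-seq libraries came from epidermis of as many newborn mice, according to the design text, and fell into 4 groups of 3. Llgl cKO Trp53 het mice were Llgl1/2 flox/flox and Trp53 +/flox, Llgl cKO mice were Llgl1/2 flox/flox, and Trp53 het mice were Trp53 +/flox, each together with K14-Cre, while control mice had K14-Cre alone. All groups thus carried this transgene, which expresses Cre recombinase in basal keratinocytes, and floxed alleles were left intact in cells in which it was not active. Levels are counts scaled to library size (CPM), with sizes corrected by TMM for the weight of a few abundant genes, and are means ± SD of n = 3 unless single libraries are given.

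The enzymes belong to different pathways. Enpp1 is an ectonucleotidase that splits extracellular ATP into AMP and pyrophosphate, which restrains mineralisation, and it also hydrolyses cGAMP, the messenger of the STING pathway; in humans, variants of ENPP1 cause a disorder of skin pigmentation and keratinisation, Cole disease. Mgat5 is the Golgi transferase that adds a branch to N-glycans on glycoproteins, and the branched glycans are ligands of galectins. Dera splits deoxyribose phosphate, a product of deoxynucleoside breakdown, into acetaldehyde and a triose phosphate. Pde2a hydrolyses cAMP and cGMP and is stimulated by cGMP. Hddc3, also called MESH1, is the animal homologue of the bacterial enzyme that degrades the alarmone ppGpp, and in human cells it has been described as a phosphatase of NADPH.

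The genes lie apart on the GRCm38 genome, and none is on chromosome 11, which holds Llgl1, Llgl2 and Trp53. Enpp1 is at chr10:24637914-24712159 on the minus strand. The other 4 are on the plus strand, Mgat5 at chr1:127205015-127488336, Dera at chr6:137754546-137857340 and Hddc3 at chr7:80343104-80350547. The identifier counted as Pde2a, ENSMUSG00000030653, spans chr7:101410886-101512819 in the annotation used here (GENCODE vM21), where it carries the name Gm45837 and begins inside the end of Arap1. That annotation gives the name Pde2a to another identifier, which starts at 101421691 and was not in the table. The annotation release behind the counts was not given in the sources used here, so whether the Pde2a values cover the longer, read-through gene model is not known.

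Upstream sequence is shown so that the starts of the genes can be compared. The 5 genes moved together across the libraries, which their choice for the same Llgl difference favours, and shared regulation was not tested. RefSeq (build GRCm38.p6) had an entry for 4 of the 5, all except Dera. Each sequence ends at the base before the first annotated start and is written 5′ to 3′ on the strand of the gene, with the motif matches in capitals. The regions are chr10:24712160-24712409 for Enpp1, chr1:127204736-127204918 for Mgat5, chr7:101421441-101421690 for the first of the 5 starts of Pde2a, and chr7:80342887-80343074 for Hddc3. The Pde2a start is that of RefSeq, at 101421691, and lies inside the longer model of the counted identifier, downstream of its start.
Enpp1: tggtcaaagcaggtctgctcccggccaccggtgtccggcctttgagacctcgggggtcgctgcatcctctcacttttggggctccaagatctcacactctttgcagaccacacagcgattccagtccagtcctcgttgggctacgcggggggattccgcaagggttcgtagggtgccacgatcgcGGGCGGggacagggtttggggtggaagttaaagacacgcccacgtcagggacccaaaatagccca
Mgat5: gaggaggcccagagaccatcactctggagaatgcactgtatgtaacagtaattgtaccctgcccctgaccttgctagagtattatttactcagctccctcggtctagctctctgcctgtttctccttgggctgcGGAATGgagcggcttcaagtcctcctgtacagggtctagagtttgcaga
Pde2a: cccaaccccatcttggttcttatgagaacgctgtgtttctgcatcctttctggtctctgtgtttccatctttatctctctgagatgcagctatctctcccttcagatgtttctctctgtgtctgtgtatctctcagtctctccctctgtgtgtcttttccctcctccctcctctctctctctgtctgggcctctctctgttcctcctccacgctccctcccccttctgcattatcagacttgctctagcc
Hddc3: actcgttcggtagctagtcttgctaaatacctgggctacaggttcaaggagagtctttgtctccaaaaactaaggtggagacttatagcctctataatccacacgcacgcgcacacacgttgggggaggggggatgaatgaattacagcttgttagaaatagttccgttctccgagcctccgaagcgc
The 6 motifs searched on both strands were the TEAD motif GGAATG, the AP-1 motif TGANTCA, the CRE motif TGACGTCA, the E-box CACGTG, the GC box GGGCGG and the CCAAT box, spelled CCAAT. No motif was shared by these upstream sequences. The Enpp1 sequence held a single GC box, 65 bases before the start, a motif found in 32.7% of 32851 mouse promoter windows of the same 250 bases. The Mgat5 sequence held a single TEAD motif, 49 bases before the start. That motif was found in 9.91% of windows of 183 bases. These windows were the distal part of the 250 bases upstream of each start and left out the bases next to it. None of the 6 motifs was in the Pde2a and Hddc3 sequences. The Enpp1 sequence was the richest in G and C, at 61.2%, against 51.9% in Mgat5, 50.8% in Pde2a and 49.5% in Hddc3.

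The libraries held between 6738720 and 14509507 counted reads. Llgl2, a target of the deletion, averaged 8.51 ± 3.38 CPM in Llgl cKO Trp53 het and 8.35 ± 1.16 CPM in Llgl cKO epidermis, against 90.9 ± 22 CPM in Trp53 het and 86.7 ± 22.3 CPM in control epidermis. Llgl1, the other target, was higher in the Llgl-deficient groups by 0.79 on the log2 scale (edgeR adjusted p = 0.00723), and counts per gene do not resolve its floxed exons. Trp53 averaged 77.4 ± 18.2 CPM in Llgl cKO Trp53 het, 118 ± 5.50 CPM in Llgl cKO, 79.2 ± 30.9 CPM in Trp53 het and 121 ± 11.0 CPM in control libraries, and the library labelled Trp53 het 3 was at 115 CPM, inside the range of the control libraries. Control 3 and the library labelled Trp53 het 3 also stood apart from the rest of their groups on the first principal component (44.6% of the variance), at -11.3 and -6.89, while the other control and Trp53 het libraries were between 41.2 and 62.7 and the Llgl-deficient ones between -55.3 and -5.97. Basal keratinocyte markers summed to between 15020 and 21040 CPM and suprabasal markers to between 55090 and 108100 CPM in every library.

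Enpp1 had the widest spread of the 5 enzymes among Llgl cKO mice. It was at 39.8, 24.1 and 25.6 CPM in Llgl cKO Trp53 het libraries 1 to 3, at 35.5, 86.3 and 48.2 CPM in Llgl cKO libraries, at 12.8, 15.8 and 8.96 CPM in Trp53 het libraries and at 13.1, 10.4 and 6.21 CPM in control libraries. The lowest Llgl-deficient library was thus above the highest of the others, and Llgl cKO 2 was the highest of all. The group means were 29.8 ± 8.66 CPM in Llgl cKO Trp53 het, 56.7 ± 26.4 CPM in Llgl cKO, 12.5 ± 3.45 CPM in Trp53 het and 9.89 ± 3.46 CPM in control epidermis. In order of mean level, Llgl cKO stood above Llgl cKO Trp53 het with overlapping libraries, then came Trp53 het without overlap, and control last, overlapping Trp53 het.

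The fitted fold of Enpp1 was 5.81 for Llgl cKO over control (log2 2.54, standard error 0.38) and 2.40 for Llgl cKO Trp53 het over Trp53 het (log2 1.26, standard error 0.37). Enpp1 was therefore the enzyme with the largest fold in the first of these comparisons and only the third largest in the second.

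Mgat5 had a narrow spread within groups. It was at 103, 90.9 and 128 CPM in Llgl cKO Trp53 het libraries, 126, 117 and 105 CPM in Llgl cKO libraries, 60.8, 71.4 and 71.7 CPM in Trp53 het libraries, and 58.2, 56.0 and 68.0 CPM in control libraries. The means were 107 ± 18.9 CPM in Llgl cKO Trp53 het, 116 ± 10.6 CPM in Llgl cKO, 68.0 ± 6.16 CPM in Trp53 het and 60.8 ± 6.39 CPM in control epidermis. The order of the groups was that of Enpp1, with overlap between the Llgl-deficient groups and between the other two, and none between these pairs. The fitted fold was 1.91 for Llgl cKO over control and 1.58 for Llgl cKO Trp53 het over Trp53 het, and the second value was the smallest of the 5 enzymes in that comparison.

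Dera had the smallest coefficient of variation of the 5 enzymes in 3 of the 4 groups, but not among control mice, where that of Mgat5 was 10.5%. Its libraries were at 45.4, 45.9 and 42.8 CPM in Llgl cKO Trp53 het, 37.2, 37.6 and 38.1 CPM in Llgl cKO, 18.9, 20.2 and 19.7 CPM in Trp53 het and 17.5, 20.0 and 22.3 CPM in control epidermis. The coefficient of variation was 3.69% among Llgl cKO Trp53 het and 1.19% among Llgl cKO mice, against 3.29% among Trp53 het and 12.1% among control mice. For Enpp1 it was 29.0% among Llgl cKO Trp53 het and 46.7% among Llgl cKO mice, against 27.5% among Trp53 het and 35.0% among control mice. Here all 3 Llgl cKO Trp53 het libraries lay above all 3 Llgl cKO libraries, which lay above the Trp53 het and control libraries, and these overlapped. How large a share of all genes has that order of the Llgl-deficient groups was not counted, and nothing is read from it. The means were 44.7 ± 1.65 CPM in Llgl cKO Trp53 het, 37.7 ± 0.449 CPM in Llgl cKO, 19.6 ± 0.645 CPM in Trp53 het and 19.9 ± 2.42 CPM in control epidermis. The fitted fold was 1.88 for Llgl cKO over control and 2.28 for Llgl cKO Trp53 het over Trp53 het.

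Pde2a had between 12 and 127 reads per library. It was at 6.59, 10.8 and 7.28 CPM in Llgl cKO Trp53 het libraries, 4.19, 3.06 and 3.08 CPM in Llgl cKO libraries, 2.22, 1.74 and 1.51 CPM in Trp53 het libraries, and 2.13, 2.04 and 1.13 CPM in control libraries. Its Llgl cKO Trp53 het libraries were all above its Llgl cKO libraries, which were all above the rest. The difference between the Llgl-deficient groups was not called (edgeR adjusted p = 0.668). The share of all genes with that order of these groups was not counted, and nothing is read from it. The means were 8.24 ± 2.28 CPM in Llgl cKO Trp53 het, 3.45 ± 0.646 CPM in Llgl cKO, 1.82 ± 0.361 CPM in Trp53 het and 1.77 ± 0.553 CPM in control epidermis. The fitted fold was 1.99 for Llgl cKO over control and 4.51 for Llgl cKO Trp53 het over Trp53 het.

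Hddc3 had between 12 and 203 reads per library and varied widely among Llgl-deficient mice. It was at 15.9, 11.1 and 7.20 CPM in Llgl cKO Trp53 het libraries, 5.15, 13.5 and 12.6 CPM in Llgl cKO libraries, 2.12, 1.74 and 3.24 CPM in Trp53 het libraries, and 3.11, 2.55 and 3.71 CPM in control libraries. The Llgl-deficient groups overlapped, Trp53 het and control overlapped, and the lowest Llgl-deficient library, Llgl cKO 1, was above control 3, the highest of the others. The means were 11.4 ± 4.37 CPM in Llgl cKO Trp53 het, 10.4 ± 4.58 CPM in Llgl cKO, 2.37 ± 0.776 CPM in Trp53 het and 3.12 ± 0.579 CPM in control epidermis. The fitted fold was 3.32 for Llgl cKO over control and 4.71 for Llgl cKO Trp53 het over Trp53 het.

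**Figure D1:**
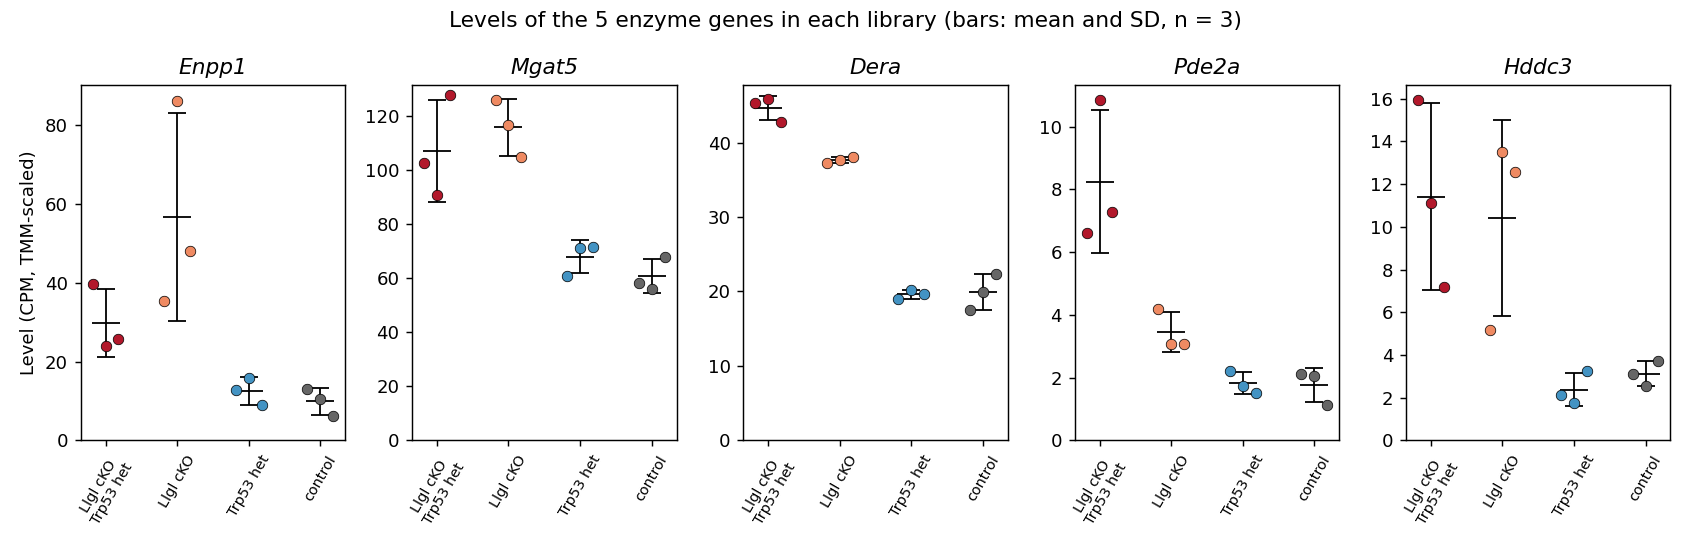
Level of each of the 5 enzyme genes (vertical axis, CPM on TMM-scaled library sizes, from 0) in the 12 libraries, 1 point per library, with the mean and SD of each group of 3. In every panel the 6 Llgl-deficient libraries on the left lie above the 6 others, and for Dera and Pde2a the Llgl cKO Trp53 het points also lie above the Llgl cKO points. The share of all genes with this latter order was not counted.

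Set per kilobase of annotated exon, so that genes can be compared, Mgat5 was the highest of the 4 with a usable length in every group: 10.4 CPM per kb in Llgl cKO Trp53 het and 11.3 CPM per kb in Llgl cKO, against 6.60 and 5.90 CPM per kb in Trp53 het and control epidermis. On the same scale Dera was at 5.50 and 4.63 CPM per kb in Llgl cKO Trp53 het and Llgl cKO, against 2.41 and 2.45 CPM per kb in Trp53 het and control epidermis. Hddc3 was at 3.02 and 2.76 CPM per kb in Llgl cKO Trp53 het and Llgl cKO, and at 0.627 and 0.827 CPM per kb in Trp53 het and control epidermis. Enpp1 was at 2.91 and 5.53 CPM per kb in Llgl cKO Trp53 het and Llgl cKO, against 1.22 and 0.964 CPM per kb in Trp53 het and control epidermis. No length was used for Pde2a because the gene model behind its counts is not known. The lengths join the exons of all annotated transcripts of a gene. The annotated models end at 137857340 for Dera and 80350547 for Hddc3, against 137837872 and 80346716 in RefSeq. Values per kilobase, and the order of genes by them, therefore depend on the annotation used.

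Groups without overlap were not rare in these data. Of all genes tested, 4.49% had every Llgl cKO library above every control library, 9.75% had every Llgl cKO Trp53 het library above every Trp53 het library, and 1.29% had all 6 Llgl-deficient libraries above the 6 others. Calls were made by edgeR's quasi-likelihood test, with p-values adjusted by Benjamini and Hochberg over all genes tested and a threshold of 0.05. In Llgl cKO against control 0.0892% of genes were called higher, among them 3 of the 5 enzymes (Enpp1, Mgat5 and Dera). In Llgl cKO Trp53 het against Trp53 het 1.36% of genes were called in either direction and 0.439% higher, and 4 of the 5 enzymes, all but Enpp1, were called higher. In Llgl cKO Trp53 het against control 0.343% were called higher, among them 3 of the 5 (Mgat5, Dera and Pde2a). In the average Llgl effect, the mean of both comparisons over 6 against 6 libraries, 1.18% were called higher, among them all 5, with folds of 3.73 for Enpp1, 1.74 for Mgat5, 2.07 for Dera, 2.99 for Pde2a and 3.95 for Hddc3. Since the enzymes were chosen as higher in Llgl-deficient libraries, nothing is read from their share of calls.

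The count of enzymes called depended on single libraries in the pairwise comparisons. In Llgl cKO against control, Enpp1 was no longer called without Llgl cKO 2, control 2 or control 3, and Mgat5 was no longer called without Llgl cKO 1, Llgl cKO 2, control 1 or control 2. In Llgl cKO Trp53 het against Trp53 het, Pde2a was no longer called without Trp53 het 2, Hddc3 was called in 5 of 12 fits that left out a library, and Mgat5 in 1 of 12.

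The average Llgl changes of the enzymes were also fitted without the libraries that stood apart. The choice of the enzymes fixes the direction of these changes, so they show nothing of stability. Without control 3 and the library labelled Trp53 het 3, the average log2 change was 1.68 for Enpp1, 0.86 for Mgat5, 1.10 for Dera, 1.38 for Pde2a and 2.22 for Hddc3, against 1.90, 0.79, 1.05, 1.58 and 1.98 with them.

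The genes were chosen by Llgl genotype and not by Trp53 genotype, but which Llgl comparison chose them is not known. The average Trp53 effect, the groups with a floxed Trp53 allele against those without, is at right angles to both pairwise Llgl comparisons. It is not at right angles to Llgl cKO Trp53 het against control, in which Mgat5, Dera and Pde2a were called higher. The Trp53 values are thus not shown to be independent of the choice for any of the 5 enzymes. None of the 5 passed. The log2 change was -0.29 for Enpp1 (95% interval -0.86 to 0.28), 0.02 for Mgat5 (-0.19 to 0.24), 0.11 for Dera (-0.06 to 0.28) and -0.12 for Hddc3 (-0.74 to 0.51), each with an edgeR adjusted p of 1. Pde2a stood apart from 0 before adjustment, at 0.66 (0.18 to 1.15, unadjusted p = 0.0119), and did not pass over all genes (adjusted p = 1). No gene at all was called, 0% of those tested, with 0 calls by DESeq2 also, and 316 genes had an unadjusted p below 0.05 by edgeR and 344 by DESeq2.

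Whether the Llgl change of an enzyme differed between Trp53 genotypes was asked by the interaction, (Llgl cKO Trp53 het over Trp53 het) minus (Llgl cKO over control), which shares its libraries with the Llgl comparisons. It is not at right angles to either pairwise Llgl comparison. If the enzymes were chosen on 1 of these, their interaction values are not independent of the choice. The same holds for Llgl cKO Trp53 het over Llgl cKO, given last, and no result about the enzymes is read from either. None of the 5 passed (adjusted p = 1 for each), nor did any other gene, 0% of those tested, while 428 genes had an unadjusted p below 0.05 by edgeR and 471 by DESeq2, which also made 0 calls. The log2 difference was -1.28 for Enpp1 (95% interval -2.42 to -0.14, unadjusted p = 0.0312), and 1.18 for Pde2a (0.21 to 2.15, unadjusted p = 0.0213). Neither held after adjustment over all genes, and no direction is read from them. For Mgat5 it was -0.27 (-0.71 to 0.16), for Dera 0.27 (-0.06 to 0.61) and for Hddc3 0.51 (-0.75 to 1.76). Within Llgl-deficient epidermis alone, Llgl cKO Trp53 het over Llgl cKO, the log2 change was -0.92 for Enpp1 (adjusted p = 0.881), 0.25 for Dera (adjusted p = 0.943) and 1.25 for Pde2a (adjusted p = 0.668), and no gene was called there, 0% of those tested, with 747 at an unadjusted p below 0.05.

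**Figure D2:**
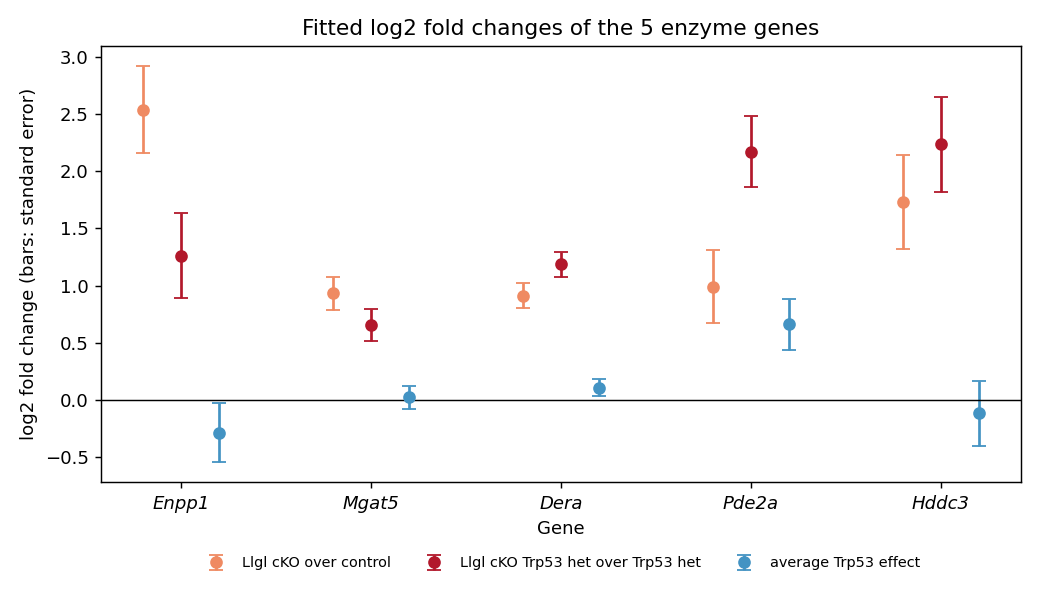
Fitted log2 fold change (vertical axis, bars are standard errors) of each enzyme gene for Llgl cKO over control, Llgl cKO Trp53 het over Trp53 het, and the average Trp53 effect. The first and second are all above 0, from 0.66 to 2.54, as the choice of genes higher in Llgl-deficient libraries fixes, while the Trp53 effect lies between -0.29 and 0.66.

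Few of the other genes of the same pathways, which the choice did not use, were called. Of 128 tested genes in 5 lists, 0 were called higher and 2 lower in the average Llgl effect, or 1.56%, where 3.33% of all genes tested were called in either direction. Their median log2 change was -0.03, against 0.00 over all genes. The count depended on the libraries and the tool: it was 25 (15 higher and 10 lower, 19.4% against 15.8% of all genes) without control 3 and the library labelled Trp53 het 3, and 12 (4 higher and 8 lower, 9.38% against 7.09%) with DESeq2. By list, the share called without both of these libraries ran from 9.09% in that of Pde2a to 30% in that of Hddc3. Leaving out single libraries gave 1 to 4 calls, with 4 without Llgl cKO 2, control 3 or the library labelled Trp53 het 3.

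In the list of extracellular nucleotide and phosphate metabolism that belongs to Enpp1, 0 of 27 tested genes were called, and the median change was -0.16. The smallest p-values were those of Enpp5, a relative of Enpp1 that lies in the same ectonucleotidase family, with a log2 change of -1.10 (adjusted p = 0.0874, and 0.0442 with DESeq2), and of Tmem173, which encodes the cGAMP receptor STING, with 0.65 (adjusted p = 0.0878). Tmem173 was at 9.18, 8.45 and 7.20 CPM in Llgl cKO Trp53 het libraries and 7.01, 5.39 and 7.93 CPM in Llgl cKO libraries, against 3.51, 4.51 and 4.97 CPM in Trp53 het libraries and 3.27, 5.87 and 6.37 CPM in control libraries. The range of the Llgl-deficient libraries overlapped that of the control libraries. Tmem173 passed without control 3 and the library labelled Trp53 het 3 (adjusted p = 0.0257) and with DESeq2 (adjusted p = 0.0234).

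In the N-glycan branching list of Mgat5, 0 of 24 tested genes were called, and the median was -0.02. Mgat4a and Mgat4b encode enzymes that add another branch to the same glycan core. Their values had opposite signs, with a log2 change of -0.60 for Mgat4a (adjusted p = 0.0687) and 0.37 for Mgat4b (adjusted p = 0.0925). Mgat4a averaged 9.79 ± 1.18 CPM in Llgl cKO Trp53 het and 13.1 ± 2.95 CPM in Llgl cKO, against 16.2 ± 3.43 CPM in Trp53 het and 18.3 ± 3.75 CPM in control epidermis. Both passed with DESeq2 (adjusted p = 0.0178 for Mgat4a and 0.0407 for Mgat4b).

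In the pentose phosphate and deoxynucleoside list of Dera, 0 of 25 tested genes were called higher and 1 lower, with a median of -0.05. The called gene was Upp1, uridine phosphorylase, which breaks uridine down to a ribose phosphate. Upp1 was at 0.0785, 0 and 0 CPM in Llgl cKO Trp53 het libraries and 0.137, 0.802 and 0.176 CPM in Llgl cKO libraries, against 7.76, 4.36 and 2.41 CPM in Trp53 het libraries and 9.81, 5.70 and 1.37 CPM in control libraries. All Llgl-deficient libraries were below all others, and control 3 and the library labelled Trp53 het 3 were the lowest with intact Llgl. The fitted log2 change was -5.40 (edgeR adjusted p = 0.00372), a value that depends on the prior count because 2 libraries had no read. Taldo1, the transaldolase of the pentose phosphate pathway, had a log2 change of -0.24 (adjusted p = 0.0823) and passed with DESeq2 (adjusted p = 0.015). Without control 3 and the library labelled Trp53 het 3, 6 of the 25 were called higher and 1 lower. That was 28% of the list, against 15.8% of all genes, and the median was -0.04.

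In the cyclic nucleotide list of Pde2a, 0 of 33 tested genes were called higher and 1 lower, with a median of 0.00. Adcy1, an adenylyl cyclase that makes cAMP, fell by 1.77 on the log2 scale (adjusted p = 0.0267). It was at 1.49, 0.342 and 1.17 CPM in Llgl cKO Trp53 het libraries and 0.687, 2.1 and 1.5 CPM in Llgl cKO libraries, against 3.14, 3.49 and 6.25 CPM in Trp53 het libraries and 2.29, 4.25 and 5.0 CPM in control libraries. These groups of 6 did not overlap, but the call was lost without any 1 of 6 libraries (Llgl cKO Trp53 het 2 or 3, Llgl cKO 1 or 3, Trp53 het 2, control 2), with an adjusted p of up to 0.0752. Prkar2a, a regulatory subunit of the cAMP-dependent kinase, had a log2 change of -0.23 (adjusted p = 0.145).

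In the NADPH and HD-domain list of Hddc3, 0 of 19 tested genes were called, with a median of 0.03. Nadk, the kinase that makes NADP from NAD, had a log2 change of -0.25 (adjusted p = 0.0804), and Idh2, a mitochondrial isocitrate dehydrogenase that makes NADPH, had 0.27 (adjusted p = 0.1). Nadk averaged 83.1 ± 5.09 CPM in Llgl cKO Trp53 het and 87.0 ± 8.61 CPM in Llgl cKO, against 105 ± 2.63 CPM in Trp53 het and 97.4 ± 4.90 CPM in control epidermis. Both passed with DESeq2 (adjusted p = 0.0171 for Nadk and 0.0266 for Idh2). Without control 3 and the library labelled Trp53 het 3, 4 of 20 tested genes of the list were called higher and 2 lower. That was 30% of the list, against 15.8% of all genes, and the median was 0.32.

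**Figure D3:**
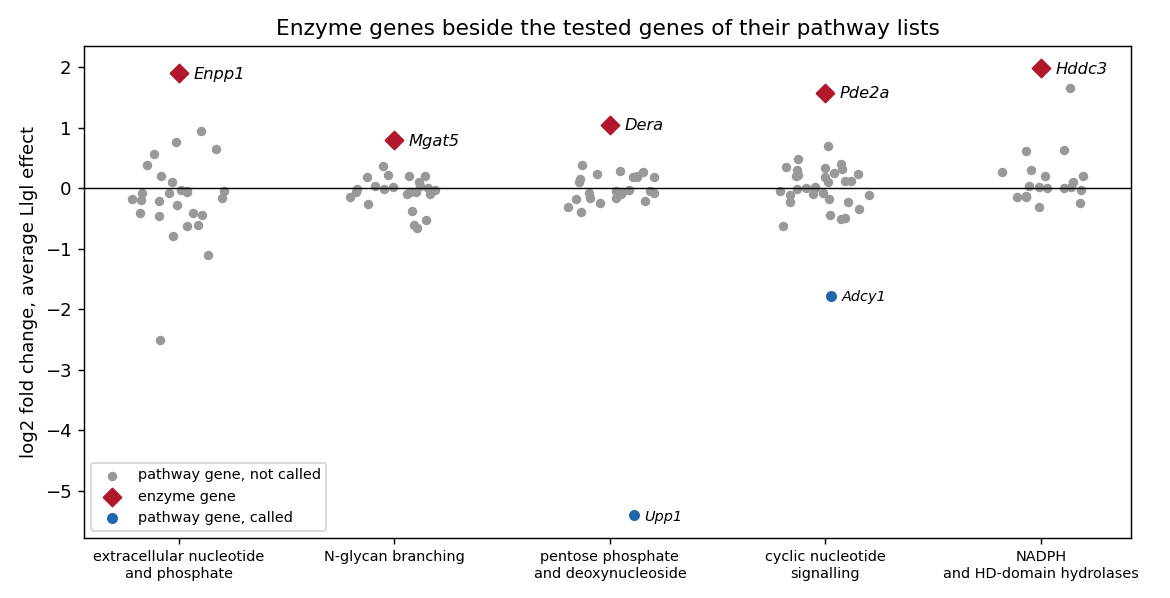
Log2 fold change in the average Llgl effect (vertical axis) of each tested gene of the 5 pathway lists, with the enzyme gene of each list as a red diamond. The enzyme genes lie between 0.79 and 1.98, each the highest of its column, a place their choice for being higher favours, and the only list genes called are Upp1 at -5.40 and Adcy1 at -1.77.

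Of the 10 nearest tested genes on the chromosome, 1 on each side of each enzyme, 0 were called in the average Llgl effect, where 3.33% of all genes tested were, and nothing is read from so few genes. They had log2 changes from -0.50 (Fes, adjusted p = 0.158, beside Hddc3) to 0.37 (Ctgf, adjusted p = 0.607, beside Enpp1). Strap lies 2614 bases before Dera and had a log2 change of 0.01 (adjusted p = 0.983), and Unc45a lies 2099 bases before Hddc3 and had -0.35 (adjusted p = 0.356). The other side of Enpp1 held Med23 at 0.23 (adjusted p = 0.159), and that of Dera held Mgst1 at -0.36 (adjusted p = 0.257). Mgat5 stood between Nckap5 at -0.27 (adjusted p = 0.468) and Ccnt2 at -0.01 (adjusted p = 0.973), and Pde2a between Stard10 at 0.07 (adjusted p = 0.821) and the pseudogene Gm7027 at 0.17 (adjusted p = 0.752). Without control 3 and the library labelled Trp53 het 3, Med23 passed at 0.32 (adjusted p = 0.0198) and Fes at -0.66 (adjusted p = 0.0191).

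Some of the annotated genes share bases with the enzymes. Hddc3 meets Man2a2, a mannosidase of the N-glycan pathway, end to end on opposite strands, and the strand setting of the counting was not given in the sources used here. Man2a2 had 9475 reads in all and a log2 change of -0.26 (adjusted p = 0.217), opposite in sign to Hddc3. Arap1, which overlaps the longer model of the identifier counted as Pde2a on the same strand, had a log2 change of -0.19 (adjusted p = 0.32). Inside Mgat5, the pseudogene Gm8451 had 140 reads in all and a log2 change of 0.64 (adjusted p = 0.255), and Tmem163, which overlaps the end of Mgat5, had 5 reads.

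Across the 12 libraries the 5 enzymes varied together to different degrees. Pearson's r of log2 CPM ran from 0.60 between Enpp1 and Pde2a to 0.90 between Dera and Hddc3. These values share the same libraries and the genotype difference by which the genes were chosen, and are given as a description.

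By the same measure over 12 libraries, other tested genes were ranked by their likeness to each enzyme. The enzymes, pseudogenes, mitochondrial genes and genes with predicted or clone names were left out of the ranking. Of the genes ranked, those most like Enpp1 were Fgd6 (r = 0.86), Tgfb1 (0.86) and Catsperg2 (0.84). Those most like Mgat5 were Lgr6 (0.93), Ano6 (0.90) and Papd4 (0.90). Those most like Dera were Catsperg2 (0.95), Smim19 (0.95) and Gucy2g (0.94), and those most like Hddc3 were Catsperg2 (0.92), Lcmt2 (0.92) and Ccs (0.90). For Pde2a they were Rpsa (0.94), which has many near-identical pseudogenes, Ift46 (0.92) and Nat9 (0.92). Catsperg2 was thus in the lists of 3 enzymes; it was between 1.31 and 4.23 CPM in the 6 Llgl-deficient libraries and between 0 and 0.0850 CPM in the others. Lgr6, a receptor that marks progenitors of the hair follicle and skin, was between 242 and 321 CPM in Llgl-deficient libraries and between 178 and 205 CPM in the others. Both genes were picked for likeness to enzymes chosen as higher in Llgl-deficient libraries, which favours this separation. It was present in 1.29% of all genes tested, and nothing is read from it.

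Markers of other cells also moved with the Llgl genotype, and in whole epidermis fewer cells of a type cannot be told apart from less RNA per cell. Over all genes tested, 1.18% were called higher and 2.15% lower in the average Llgl effect, the background for the calls in each marker list. Of 9 tested hair shaft and inner root sheath markers, 0 were called higher and 8 lower in the average Llgl effect, and none was at 0 in every library. The list summed to 363, 101 and 117 CPM in Llgl cKO Trp53 het libraries and 855, 2843 and 891 CPM in Llgl cKO libraries, against 4833, 3885 and 1915 CPM in Trp53 het libraries and 6023, 4271 and 1296 CPM in control libraries. Llgl cKO 2 was thus inside the range of the control libraries.

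None of the 8 markers of G2 and M phase was called, and their sum was 652, 674 and 840 CPM in Llgl cKO Trp53 het libraries and 533, 645 and 605 CPM in Llgl cKO libraries, against 189, 198 and 1164 CPM in Trp53 het libraries and 146, 228 and 999 CPM in control libraries. Control 3 and the library labelled Trp53 het 3 had the highest sums of all, above every Llgl-deficient library. Dera was at 22.3 CPM in control 3 and 19.7 CPM in the library labelled Trp53 het 3. All 5 enzymes were below every Llgl-deficient library in both. The choice of the enzymes as higher in Llgl-deficient libraries favours this order, so nothing about the cell cycle is read from it.

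**Figure D4:**
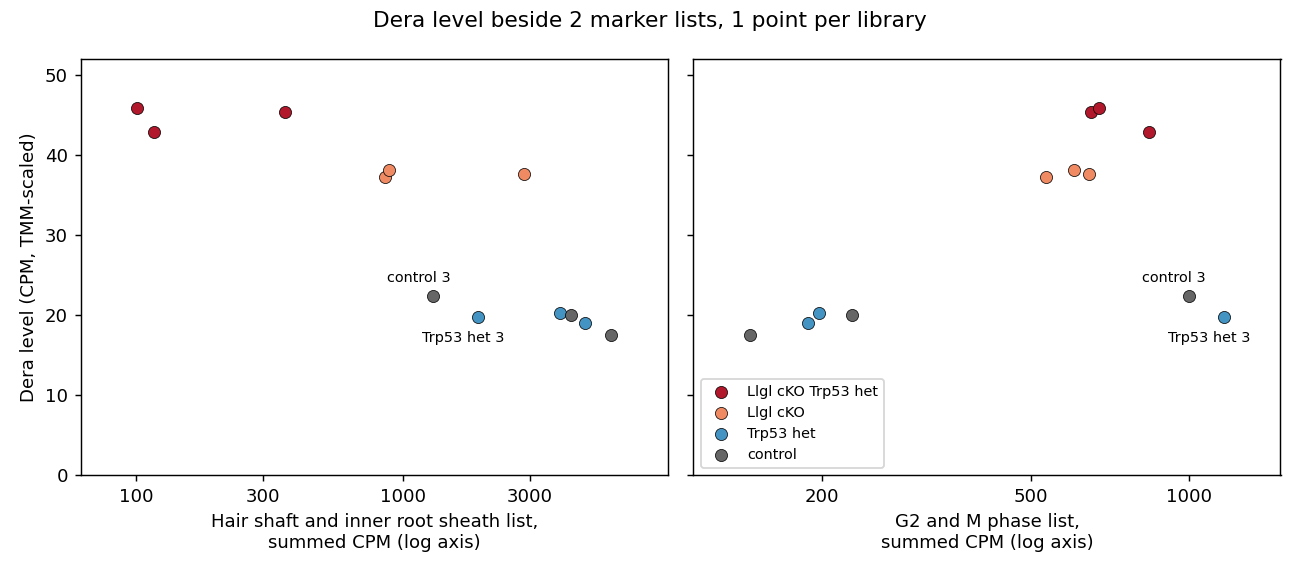
Level of Dera (vertical axis, CPM) in each library beside the summed CPM of hair shaft and inner root sheath markers and of G2 and M phase markers (horizontal log axes). Control 3 and Trp53 het 3 have the highest G2 and M sums, 999 and 1164 CPM, and Dera levels of 22.3 and 19.7 CPM. The choice of Dera as higher in Llgl-deficient libraries favours its lower levels in the other libraries.

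Of 7 tested T cell markers, 2 were called lower and 0 higher in the average Llgl effect. None of the 7 had a log2 change above 0, and the median was -1.50. The list summed to 9.65 to 20.3 CPM in Llgl cKO Trp53 het and 6.32 to 14.4 CPM in Llgl cKO, against 12.8 to 50.7 CPM in Trp53 het and 22.4 to 34.8 CPM in control epidermis. Of 8 tested fibroblast markers, 1 was called higher and 0 lower. Only 4 of the 8 had a log2 change above 0, and the median was -0.13. The fibroblast list summed to between 308 and 406 CPM in Llgl cKO Trp53 het and between 259 and 344 CPM in Llgl cKO. In Trp53 het it summed to 130 to 263 CPM, and in control epidermis to 129 to 270 CPM. The T cell and fibroblast lists share a gene. Adipocyte markers were called lower in 2 of 2 tested genes, with a median log2 change of -3.39, and the 5 genes of the list summed to between 0.335 and 0.769 CPM in Llgl cKO Trp53 het and between 1.67 and 3.57 CPM in Llgl cKO, against 2.861 to 17.45 CPM in Trp53 het and 2.015 to 29.1 CPM in control epidermis. Of 10 tested identifiers in the suprabasal list, 1 was called higher, 1 of several that carry the symbol Flg (filaggrin), and 1 was called lower, Ivl (involucrin, of the cornified envelope), at -0.93 (edgeR adjusted p = 0.0317). The part of the hair, T cell, fibroblast, adipocyte, suprabasal and cell cycle markers in the enzyme levels was not tested.

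Endothelial cells are also known to express Pde2a. The 10 endothelial markers summed to between 5.04 and 6.99 CPM in Llgl cKO Trp53 het and between 5.11 and 7.65 CPM in Llgl cKO, against 3.78 to 6.63 CPM in Trp53 het and 2.13 to 6.21 CPM in control epidermis. Of these, 2 were expressed enough to test, Egfl7 and Vwf, the 2 highest, and 0 were called. Egfl7 averaged 3.01 ± 0.966 CPM in Llgl cKO Trp53 het and 2.34 ± 0.428 CPM in Llgl cKO, against 2.00 ± 1.27 CPM in Trp53 het and 1.45 ± 1.01 CPM in control epidermis, with overlapping groups and a log2 change of 0.58 (adjusted p = 0.428). Vwf averaged 1.67 ± 1.07 CPM in Llgl cKO Trp53 het and 2.62 ± 1.68 CPM in Llgl cKO, against 1.45 ± 0.301 CPM in Trp53 het and 1.23 ± 0.490 CPM in control epidermis, also with overlap and with a log2 change of 0.63 (adjusted p = 0.455). Cldn5, Cdh5 and Emcn were each at or near 0, with at most 0.0837 CPM in any library, and none of the 10 was at 0 in every library. The part of the endothelial markers in the level of Pde2a was not tested.

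In the list of mural cells, which surround small vessels, the 2 highest genes were Cspg4 and Pdgfrb, and Rgs5 was at 0 in every library. Cspg4 averaged 43.8 ± 6.89 CPM in Llgl cKO Trp53 het and 59.1 ± 15.2 CPM in Llgl cKO, against 57.3 ± 2.87 CPM in Trp53 het and 46.1 ± 7.08 CPM in control epidermis, with a log2 change of -0.02 (adjusted p = 0.967). Pdgfrb reached at most 1.26 CPM in any library and was too low to test.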

How the data were processed

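Stranded mRNA libraries were prepared from total RNA, per the labels' protocols. STAR, featureCounts 1.6.4, DESeq2 2.11.40.8 and GRCm38 were named in the submitters' processing notes; the annotation release, the strand setting and any filters were not given in the sources used here. The deposited table held raw read counts per gene, not normalized, and 0 columns were left unused. GENCODE vM21 matched 45229 identifiers, 14532 of them tested, and 214 symbols belonged to more than 1 identifier.

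Counts were fitted in R 4.3.3 with edgeR 4.0.16: TMM, filterByExpr (minimum count 10), and 1 robust quasi-likelihood model of 4 group means over 12 libraries (8 residual degrees of freedom). The p-values thus measure the spread between mice. The biological coefficient of variation was 23.8%. Correlations used log2 CPM with a prior count of 2. Alternatives were DESeq2 1.42.0, median-of-ratios scaling, other low-count filters, only the groups compared, replicate number as a block, and leaving out libraries. The scripts were tested on simulated data. The labels give no batch.

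The members, lists and alternatives were chosen with earlier results of these data known. Named genes were the enzymes, the targeted genes, and neighbouring and overlapping genes. Per pathway list, up to 4 called genes and always the 2 of smallest p were named. The 3 most alike per enzyme were named after leaving out enzymes, pseudogenes, mitochondrial genes and predicted or clone names. Of a marker list given beside an enzyme, the 2 highest and any at 0 throughout were named. Cldn5, Cdh5, Emcn, Ivl, Flg and 2 list genes in the closing section were singled out after their values were seen.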

Additional observations from a re-analysis of the deposited data

How the results depend on the processing

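In the average Llgl effect, in which the choice of the 5 enzymes fixes their direction and which therefore shows nothing of stability, their lowest log2 changes over 18 alternatives were 1.68 for Enpp1, 0.72 for Mgat5, 1.00 for Dera, 1.38 for Pde2a and 1.82 for Hddc3. In the Trp53 effect and the interaction none of the 5 was called in any of 18. Counts over all genes moved more. In Llgl cKO against control, 33 genes were called, against 114 with DESeq2, 413 without control 3 and Trp53 het 3, and 15 (without control 2) to 42 (without Trp53 het 3) when each library was left out; 3 enzymes were called, against 4 with DESeq2, 0 with only the 2 groups compared and 1 to 3 when each library was left out. In Llgl cKO Trp53 het against Trp53 het, 198 were called, against 722 with DESeq2, 1088 without both libraries, 117 with only the 2 groups, and 24 (without Llgl cKO Trp53 het 3 or Trp53 het 1) to 322 (without Trp53 het 3 or control 3) when each was left out, and 4 enzymes were called, against 5 with DESeq2, 3 with no low-count filter and 1 to 4 when each was left out. In the average Llgl effect 485 were called (172 higher, 313 lower), against 1034 with DESeq2, 2334 without both libraries (1185 higher, 1149 lower) and 164 (without control 2) to 697 (without Trp53 het 3 or control 3) when each was left out, and 2 pathway genes against 12, 25 and 1 to 4. The Trp53 effect had 0 calls, and 2 without both libraries. The cause of these shifts was not tested.

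The replicate block gave 376 calls in Llgl cKO Trp53 het against Trp53 het and 4 pathway genes (2 higher, 2 lower), and changed no enzyme's call; of the other named genes, Fes (adjusted p = 0.0488) and Slc7a11 (0.0462) passed and Ccs no longer did (0.0597). Same-numbered libraries had correlated deviations in Trp53 het and control (0.62, 0.21 and 0.82), but not in all pairs of Llgl cKO and control (0.12, 0.07 and 0.13) or of Llgl cKO Trp53 het and Trp53 het (-0.10, 0.16 and 0.17), so pairing is not established for those; in the first of these every Llgl cKO library matched its own number best.

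Values near 0 changed sign, none of them called. Without control 3 and Trp53 het 3 these were Trp53 (average Llgl effect 0.16), Ccnt2 (3e-04) and Stard10 (-0.0512). When single libraries were left out, the average Llgl effect ran from -0.1396 to 0.1514 for Trp53, -0.0633 to 0.0392 for Ccnt2 and -0.0487 to 0.0848 for Strap, and the Trp53 effect from -0.0491 to 0.0815 for Mgat5 and -0.2803 to 0.0048 for Hddc3. Depth limits Pde2a and Hddc3 most, with as few as 12 reads in a library.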

Other observations

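Slc7a11 and Panx3, 2 pathway genes, had large changes that edgeR did not call in the average Llgl effect, and both were singled out after their values were seen. Slc7a11, the cystine transporter of the Hddc3 list, was at 9.65, 12.3 and 75.1 CPM in Llgl cKO Trp53 het libraries and 14.2, 7.14 and 16.6 CPM in Llgl cKO libraries, against 4.80, 3.05 and 9.56 CPM in Trp53 het libraries and 3.43, 7.65 and 9.27 CPM in control libraries. Its log2 change was 1.65 (edgeR adjusted p = 0.128), and it was called higher with DESeq2 (adjusted p = 0.0124) and with the replicate block (adjusted p = 0.0462), with adjusted p-values of 0.0124 to 0.293 over 18 alternatives; Llgl cKO Trp53 het 3 was far above all other libraries. Panx3, a pannexin of the Enpp1 list, had no read in 3 of 6 Llgl-deficient libraries and at most 1.58 CPM in any library, with a log2 change of -2.51 (adjusted p = 0.118, and 0.0347 without Llgl cKO 2).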
